A study of Mus musculus with 8 samples.

Results

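Heat-shock proteins and their partner chaperones were followed in messenger RNA from the gastrocnemius muscle of the calf in C57BL/6 mice. The genes were taken by symbol from the count tables of all 8 libraries: the HSP70 and HSP110 proteins (Hspa, Hsph1), the HSP90 proteins (Hsp90), the small heat-shock proteins (Hspb), the mitochondrial chaperonin (Hspd1, Hspe1), the J proteins (Dnaja, Dnajb, Dnajc), the TRiC subunits (Cct) and the BAG proteins (Bag). Of 23282 rows, 87 matched, and 77 of these were among the 13174 genes that passed edgeR's filter on low counts. The 10 genes that did not pass had between 0 and 29 counts in all libraries together: Cct6b, Cct8l1, Dnajb7, Dnajb8, Dnajb13, Dnajc5b, Dnajc5g, Dnajc6, Dnajc22 and Hspb9.

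The 3 libraries titled Normal are labelled as muscle of mice injected under the skin with 100 µl of saline and then given 200 µl of water by mouth. The 3 titled Control are labelled as muscle of mice injected with LLC cells, a mouse lung carcinoma line, left for 2 weeks of tumour growth and then given 200 µl of water daily for 2 weeks. The 2 titled RP are labelled as tumour-bearing mice that were dosed with Paeonia lactiflora, extracted in 30% ethanol, at 100 mg/kg daily over the same 2 weeks. The listed age is 4 weeks, no genetic modification is named for any group, and no label ties the libraries to separate animals. The p-values therefore reflect only how far these libraries lie apart, which may be technical.

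The tables of all 6 Normal and Control libraries carry the name of the other group, so their labels conflict. Directions below are for the titled groups. If the table names hold in place of the titles, every difference of Control from Normal takes the opposite sign, and what is given for RP against Control belongs to RP against Normal and the reverse.

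Library totals ran from 9528011 to 12333767 counts. All 8 myofibre markers, among them Acta1 and Ckm, were present, with a summed level between 69504 and 113875 CPM, the count as a share of the library scaled to the same size and composition, in every library. Reads of 3′ ends count transcripts whatever their length, so levels of different genes are set side by side without a correction for it. Haemoglobin genes held 4.57 to 19.7% of counts in the Normal-titled, 1.41 to 1.61% in the Control-titled and 0.862 and 3.83% in the RP libraries. The 8 neutrophil markers summed to 940 to 1950 CPM in the Normal-titled, 11.6 to 20.8 CPM in the Control-titled, where Ltf was at 0 in every library, and 34.9 and 495 CPM in the RP libraries. In bulk tissue, fewer cells of a type and less RNA per cell cannot be told apart.

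Chaperones bind unfolded or partly folded proteins and help them to fold, to be held in solution or to be passed on for degradation. HSP70 works in a cycle driven by ATP, in which J proteins deliver clients and HSP110 and BAG proteins release the nucleotide. HSP90 takes over many signalling clients, TRiC folds actin and tubulin, and the small heat-shock proteins hold unfolded proteins without ATP. In muscle, small heat-shock proteins and BAG3 act at the Z-disc, where filaments are under load. Under heat, ischaemia or other protein damage, heat-shock factor 1 binds heat-shock elements, repeats of the unit nGAAn in alternating orientation, and switches on inducible genes such as Hspa1a and Hspa1b, while a separate set of chaperones in the endoplasmic reticulum (ER) is switched on through ER stress elements.

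The upstream sequences of Hspa1a and Hspa1b, whose levels differed most from library to library, and of Hspb1 are shown first. The heat-shock elements can so be seen beside the values that follow. Hsp90aa1 and Dnajb1 had a wider spread than Hspb1 and are not shown. Hsp90aa1 had no promoter entry, and Dnajb1 held no match. The sequences come from RefSeq (build GRCm38.p6, which has the coordinates of mm10). They are written 5′ to 3′ on the strand of the gene, and end at the base before the annotated start. Capitals mark each match to the 2-unit heat-shock element (GAA and TTC, or TTC and GAA, with any 2 bases between them, searched on both strands). Hspa1a is read from chr17:34972157-34972406 (minus strand), Hspa1b from chr17:34959239-34959488 (minus strand) and Hspb1 from chr5:135887669-135887918 (plus strand).
Hspa1a: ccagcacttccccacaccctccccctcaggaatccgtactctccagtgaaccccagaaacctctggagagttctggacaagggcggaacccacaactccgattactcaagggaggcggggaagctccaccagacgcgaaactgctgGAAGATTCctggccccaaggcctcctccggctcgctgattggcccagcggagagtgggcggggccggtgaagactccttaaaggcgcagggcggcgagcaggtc
Hspa1b: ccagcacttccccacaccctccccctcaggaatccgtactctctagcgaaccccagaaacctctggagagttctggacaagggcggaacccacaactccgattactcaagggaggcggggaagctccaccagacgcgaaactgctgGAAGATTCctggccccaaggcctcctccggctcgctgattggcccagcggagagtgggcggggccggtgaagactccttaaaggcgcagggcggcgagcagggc
Hspb1: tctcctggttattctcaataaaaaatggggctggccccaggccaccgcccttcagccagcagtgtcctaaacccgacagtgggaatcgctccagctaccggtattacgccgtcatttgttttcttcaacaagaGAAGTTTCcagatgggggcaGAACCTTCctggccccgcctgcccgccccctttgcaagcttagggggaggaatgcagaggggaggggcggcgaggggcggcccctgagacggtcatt

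Hspa1a and Hspa1b lie 10120 bases apart on chromosome 17, and their upstream sequences were identical at 247 of 250 positions (98.8%). In both, the match begins at base -104 from the start, and in Hspb1 the matches begin at -117 and -97. Despite the likeness of these genes, the last 500 bases of their transcripts shared no stretch of 50 bases, so 3′ reads of that length can separate them.

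Hspa1b and Hspa1a, the stress-inducible HSP70 genes, had the widest spread inside the titled groups of all 13174 genes tested. Hspa1a was at 766, 219 and 14.8 CPM in Normal 1, 2 and 3, at 8.64, 69.5 and 26.9 CPM in Control 1, 2 and 3, and at 127 and 497 CPM in RP 1 and 2. Hspa1b was at 665, 155 and 7.57 CPM in Normal 1 to 3, 5.03, 51.0 and 12.7 CPM in Control 1 to 3 and 126 and 399 CPM in RP 1 and 2. Normal 1 was highest of the 8 libraries for both genes and Control 1 lowest, and Normal 3 lay inside the range of the Control-titled libraries, so that these groups overlapped. Both RP libraries lay above all 3 Control-titled libraries.

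Within the Normal-titled group the highest library exceeded the lowest 52.0-fold for Hspa1a and 87.8-fold for Hspa1b. The SD of log2 CPM around the group means was 2.16 for Hspa1a and 2.38 for Hspa1b, which placed them at ranks 2 and 1. Without Normal 3 these SDs were 1.42 and 1.51, at ranks 22 and 10, and with a prior count of 0.5, which widens the spread of rare genes, the ranks were 10 and 3. Across all genes the median of this SD was 0.267 and the 99th percentile 1.09.

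Neither gene passed the test in any comparison. The log2 change of Control against Normal was -3.26 ± 1.59 (SE, adjusted p = 0.277, edgeR) for Hspa1a and -3.60 ± 1.75 (SE, adjusted p = 0.275, edgeR) for Hspa1b. For RP against Control it was 3.16 ± 1.67 (SE, adjusted p = 0.674, edgeR) and 3.53 ± 1.83 (SE, adjusted p = 0.664, edgeR). The constitutive HSP70 Hspa8, which folds proteins in unstressed cells, ranged far less, from 275 CPM in Control 1 to 474 CPM in Normal 2. As a result the ratio of Hspa1a and Hspa1b together to Hspa8, in CPM, went from 0.0496 in Control 1 to 3.27 in Normal 1.

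**Figure D1:**
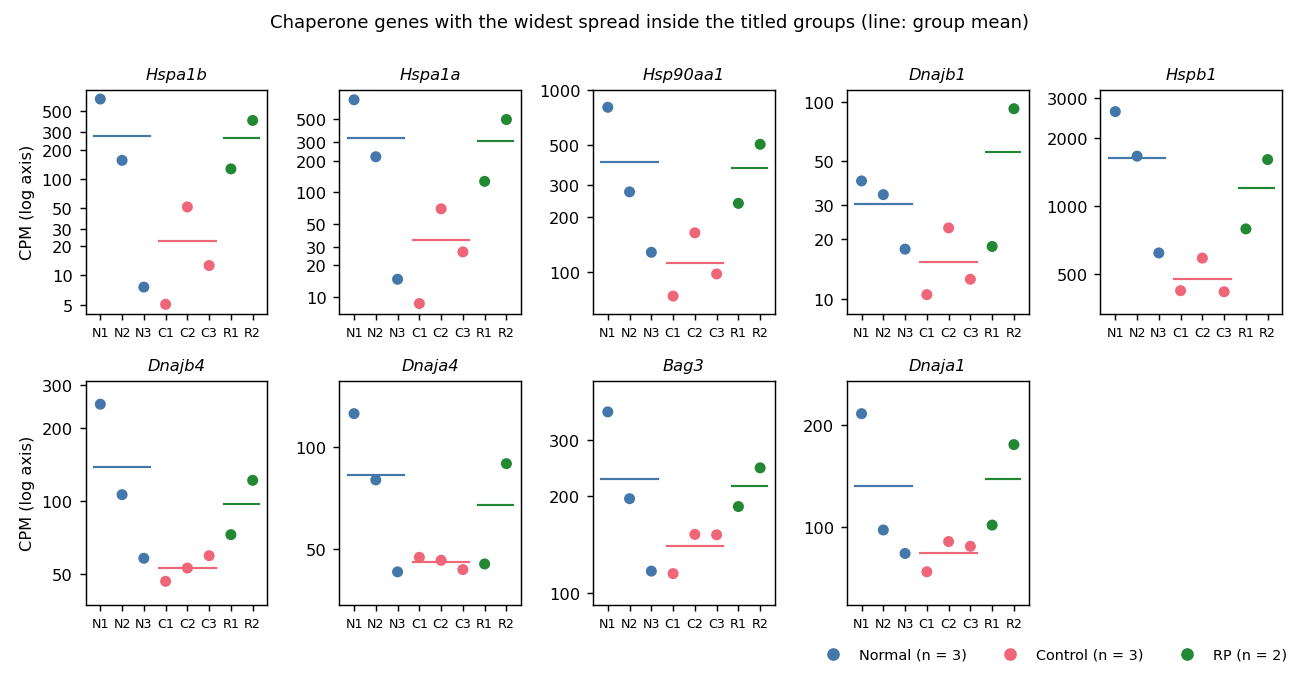
Level in CPM (log axis) of the 9 chaperone genes with the widest spread inside the titled groups, in each library (N1 to N3 Normal, C1 to C3 Control, R1 and R2 RP; lines are group means). Normal 1 is the highest and Normal 3 the lowest Normal-titled library in all 9 panels, and RP 2 is above RP 1 in all 9. The genes were chosen for this spread, and other genes as wide were not counted.

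The same order of the Normal-titled and of the RP libraries, but not always of the Control-titled ones, was seen in 7 other chaperone genes. These had a mean of at least 5 CPM and an SD above 0.5, a bound set after the values were seen. The 7 were Hsp90aa1, the inducible cytosolic HSP90, Dnajb1, a J protein made with HSP70 under stress, Hspb1 (HSP25), Dnajb4, Dnaja4, Dnaja1 and Bag3, the muscle co-chaperone that links HSP70 to small heat-shock proteins. Among these 9 genes, Normal 1 was the highest and Normal 3 the lowest Normal-titled library in 9 of 9, and RP 2 was above RP 1 in 9 of 9. Control 2 was the highest Control-titled library in 7 and Control 1 the lowest in 7. Over all 77 chaperone genes, Normal 1 was the highest Normal-titled library in 35 (40.2% of all genes) and Normal 3 the lowest in 35 (36.6%), and RP 2 was above RP 1 in 53 (49.6%). The genes share the same libraries, so the counts describe these libraries and are not independent of each other. The 9 genes were chosen for their wide spread, and the order was not counted in other genes as wide. Over all genes tested, Normal 1 and Normal 3 were the Normal-titled pair furthest apart in raw counts.

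Hsp90aa1 was at 801, 275 and 128 CPM in Normal 1 to 3, 73.5, 164 and 97.2 CPM in Control 1 to 3 and 238 and 502 CPM in RP 1 and 2. Dnajb1 was at 39.7, 33.8 and 17.9 CPM, then at 10.5, 22.9 and 12.6 CPM, and at 18.4 and 92.3 CPM in the same order. Here RP 2, not Normal 1, was highest of the 8, and it stood 5.01-fold above RP 1. Hspb1 was at 2612, 1660 and 620 CPM in Normal 1 to 3, 422, 588 and 417 CPM in Control 1 to 3 and 791 and 1603 CPM in RP 1 and 2. Bag3 was at 366, 197 and 117 CPM in Normal 1 to 3, 115, 152 and 152 CPM in Control 1 to 3 and 186 and 245 CPM in RP 1 and 2. For Hspb1 every Normal-titled and RP library lay above every Control-titled library.

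None of the 9 passed the test in Control against Normal or in RP against Control. The log2 change of Control against Normal was -1.85 ± 0.794 (SE, adjusted p = 0.221, edgeR) for Hsp90aa1, -0.997 ± 0.696 (SE, adjusted p = 0.436, edgeR) for Dnajb1 and -1.78 ± 0.565 (SE, adjusted p = 0.112, edgeR) for Hspb1. The difference of Hspb1 passed with DESeq2 (adjusted p = 0.0121), with limma-voom (adjusted p = 0.0259) and without Normal 3 (adjusted p = 0.0104, edgeR). Bag3 and Dnajb4 also passed without Normal 3 (adjusted p = 0.0194 and 0.0404, edgeR), and Dnaja4 passed without Normal 3 and with DESeq2. Normal 3 was the library with the highest haemoglobin share, 19.7%, against 4.57% in Normal 1. The part of blood content in these levels was not tested. Copies elsewhere in the genome share 39.2% of the 50-base stretches at the transcript end of Hspb1, 39.1% of those of Dnaja1 and 24.7% of those of Hsp90aa1, so the counts of these 3 genes are uncertain.

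Hsf1 itself, the factor that binds these elements, was at 13.1, 28.1 and 41.3 CPM in Normal 1 to 3, 27.0, 18.9 and 21.9 CPM in Control 1 to 3 and 16.3 and 19.0 CPM in RP 1 and 2. Its order was opposite to that of Hspa1a among the Normal-titled and among the Control-titled libraries, and the same in RP. Hsf1 did not pass the test in any comparison of all 8 libraries (log2 change of Control against Normal -0.28 ± 0.343, SE, adjusted p = 0.663, edgeR). Without Normal 1 it passed against Normal in both comparisons, at a log2 change of -0.62 for Control (adjusted p = 0.0440, edgeR) and -0.98 for RP (adjusted p = 0.0159, edgeR).

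**Figure D2:**
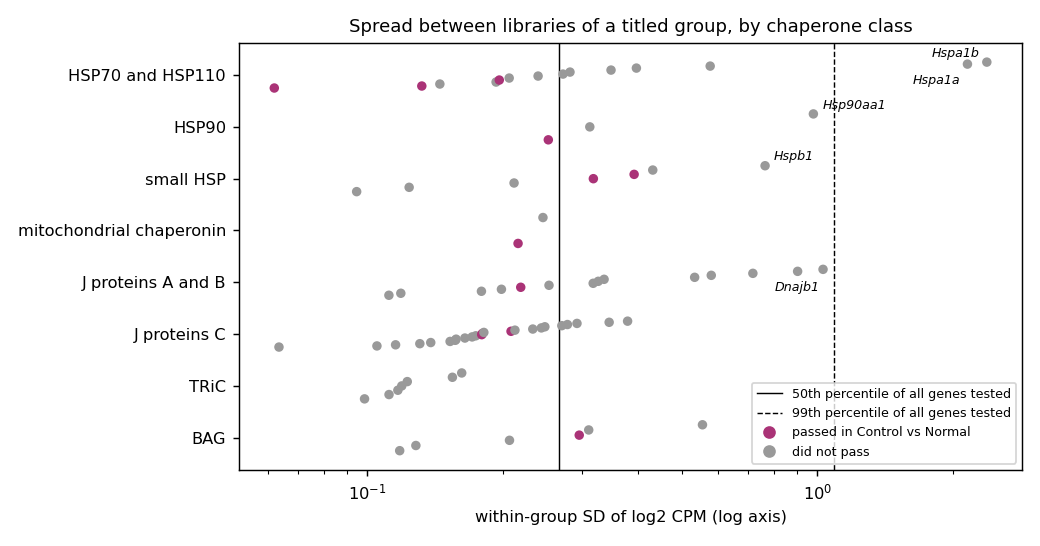
Within-group SD of log2 CPM (log axis) of the 77 tested chaperone genes, 1 point per gene, by class; vertical lines mark the 50th and 99th percentile of all 13174 genes tested. Hspa1a and Hspa1b lie beyond the 99th percentile, and the genes that passed in Control against Normal lie between 0.0621 and 0.391.

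Set against all genes tested, which were not matched for level, the chaperone genes as a set were not wide in spread. The median SD of the 77 was 0.213, below the 0.267 of all genes, and 11 of 77 (14.3%) were above 0.5 against 17.2% of all genes. Among the 9737 genes with a mean of at least 5 CPM, the 9 wide-spread genes held ranks from 1 to 390. Whether chaperone genes are wide against genes of like level was not tested. The TRiC subunits were the class with the lowest median SD, 0.119, and ran from 0.0985 to 0.162. The 2 wide-spread genes outside the 9 were of low level, Dnajb3 (0 to 1.13 CPM) and Hspa4l (1.94 to 6.17 CPM).

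Heat-shock and ER stress elements were counted in the promoter windows, from 250 bases before to 50 bases after each annotated start. RefSeq windows matched 63 of the 77 genes, and a gene with several starts was counted once if any of its windows held the element. The genes with no entry were Bag4, Cct4, Dnajc2, Dnajc5, Dnajc11, Dnajc12, Dnajc18, Dnajc30, Hsp90aa1, Hsp90ab1, Hspa8, Hspa9, Hspa13 and Hspb2. The 2-unit element, which is also part of every 3-unit match, was in 19 of 63 (30.2%), against 14.1% of all tested genes with a window and 17.0% of all genes. Of the 8 wide-spread genes with a window, 7 held it (Bag3, Dnaja1, Dnaja4, Dnajb4, Hspa1a, Hspa1b and Hspb1), and Dnajb1 did not.

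The 3-unit element (GAA, TTC and GAA, or TTC, GAA and TTC, each 2 bases apart, on either strand) was in 4 of 63 (6.35%), against 0.602% of all tested genes with a window. The 4 were Hspe1, Hspd1, Hsph1 and Dnajb6, and none of them was among the wide-spread genes. Hspe1 and Hspd1, which encode the lid and the barrel of the mitochondrial chaperonin, overlap head to head by 96 bases on chromosome 1 and share the same matches. The ER stress element (CCAAT and CCACG with any 9 bases between them, on either strand) was in 3 of 63 (4.76%), against 0.160% of tested genes: Hspa5 (BiP), Hsp90b1 (GRP94) and Dnajc3, which all act in the ER. A match is a description of these letters and was not tested for binding. Hsp90b1 holds a further ER stress element in the other orientation, which begins at base -107 and is not printed. The 3-unit site of Hsph1 lies after the start, at base 16 or 37 by the annotated start used. Matching sites are printed below in capitals, within 30 bases each, from chr1:55088053-55088082 (Hspe1, plus strand), chr5:149636287-149636316 (Hsph1, minus), chr5:29735844-29735873 (Dnajb6, plus), chr2:34772020-34772049 (Hspa5, plus), chr10:86705632-86705661 (Hsp90b1, minus) and chr14:118937822-118937851 (Dnajc3, plus).
Hspe1: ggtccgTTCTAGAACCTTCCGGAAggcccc
Hsph1: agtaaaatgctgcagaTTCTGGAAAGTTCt
Dnajb6: agctccgaGAATCTTCCGGAAcgctagacc
Hspa5: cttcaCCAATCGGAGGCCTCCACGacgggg
Hsp90b1: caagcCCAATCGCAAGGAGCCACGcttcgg
Dnajc3: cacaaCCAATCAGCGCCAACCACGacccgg

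Control against Normal asked what the tumour does to muscle. Of the 77 chaperone genes, 12 (15.6%) differed at an adjusted p under 0.05 in edgeR's quasi-likelihood test, against 10.4% of all genes tested. In the Control-titled libraries 9 were lower (11.7%, against 5.43% of all genes) and 3 higher (3.90%, against 4.95%). The lower genes were Hspb7, Hsph1, Hspb8, Hsp90ab1, Dnajc2, Dnajb2, Hspe1, Hspa4 and Hspa9, and the higher ones Bag2, Dnajc4 and Dnajc12. All had SDs within groups under 0.4, and none was among the wide-spread genes. The test weighs a change against this spread, so genes of narrow spread pass more readily. Of the called genes, Hsp90ab1, Hspa9, Dnajc2 and Dnajc12 had no promoter window. Among the rest, Hsph1 and Hspe1 hold the 3-unit heat-shock element and Hspb8 the 2-unit one. Over all chaperone genes with a window, 6.35% held the 3-unit and 30.2% the 2-unit element. A link between these elements and the calls was not tested.

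The count rests on few libraries. It was 2 without Normal 2, without Control 1 or without Control 3 (6.22, 4.78 and 4.7% of all genes). Without Control 2 it was 6 (6.33%). It was 14 without Normal 1 (15%) and 18 without Normal 3 (11.9%), of which 8 and 11 were among the 12. With the level of Hba-a1, a haemoglobin gene, as a covariate it was 4 (3.45% of all genes). These were Hspb7, Hspb8 and Hsph1 of the 12, and Dnajb5. The share of all genes called, 10.4% in the main fit, so moved as well. Hspb7 and Hsph1 passed in all 18 alternatives, and each of the other 10 calls was lost without Normal 2, without Control 1 and without Control 3. In the same comparison all 8 neutrophil markers, 2 of 8 erythroid, 2 of 8 endothelial and 2 of 5 satellite cell markers were lower in the Control-titled libraries, and 3 of 8 connective-tissue and 2 of 8 myofibre markers were higher. None of the macrophage, Schwann cell or adipocyte markers passed. The part of these cells in the chaperone levels was not tested.

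The groups did not overlap in CPM for 25 of 77 genes, 17 lower and 8 higher in the Control-titled libraries, against 31.3% of all genes (14.7% lower and 16.6% higher). At an unadjusted p under 0.05 there were also 25 of 77, against 26.2% of all genes. The median log2 change of the 77 was -0.14 against 0.00 for all genes, and 50 of 77 were negative. By class the medians were -0.77 for HSP90 (3 genes), -0.46 for the mitochondrial chaperonin (2), -0.37 for the A and B type J proteins (14), -0.29 for TRiC (7), -0.23 for HSP70 and HSP110 (14), -0.16 for the small heat-shock proteins (7), -0.12 for BAG (6) and 0.03 for the C type J proteins (24).

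**Figure D3:**
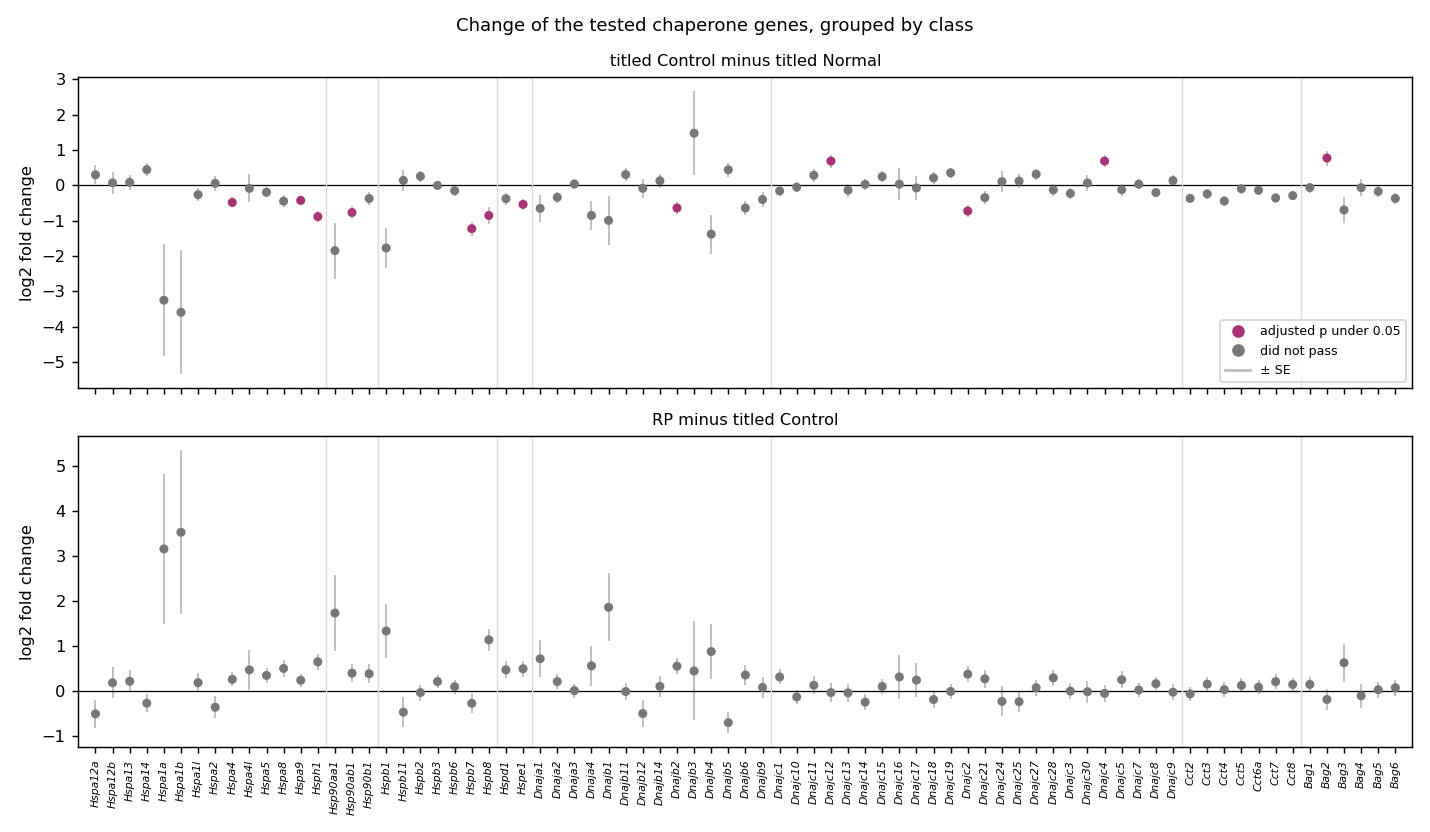
Log2 fold change ± SE of the 77 tested chaperone genes, grouped by class, for titled Control minus Normal (upper) and RP minus titled Control (lower), with genes past an adjusted p of 0.05 coloured. In the upper panel 9 coloured genes lie below 0 and 3 above, in the lower panel none is coloured, and Hspa1a and Hspa1b have the widest error bars.

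Among the small heat-shock proteins, Hspb7, a form made mainly in heart and skeletal muscle, had the lowest adjusted p of the chaperone genes. It was at 284, 253 and 185 CPM in Normal 1 to 3, 76.2, 119 and 112 CPM in Control 1 to 3 and 74.8 and 94.3 CPM in RP 1 and 2. All 3 Normal-titled libraries lay above all 5 others. The log2 change of Control against Normal was -1.23 ± 0.198 (SE, adjusted p = 0.00131, edgeR), or 2.35-fold lower. The gene lies at chr4:141420779-141425310 and overlaps no other annotated gene.

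Hspb8 (HSP22), which works in a complex with BAG3, was at 1425, 1334 and 685 CPM in Normal 1 to 3, 610, 735 and 558 CPM in Control 1 to 3 and 1413 and 1374 CPM in RP 1 and 2. Normal 3 lay below Control 2, so the groups overlapped, and the log2 change was -0.86 ± 0.230 (SE, adjusted p = 0.0337, edgeR). It did not pass in 7 of the 18 alternatives, among them without Normal 1, Normal 2, Control 1, Control 3 or either RP library (adjusted p from 0.0517 to 0.139, edgeR). Hspb6 (HSP20), which binds actin-associated proteins in muscle, was as abundant but even, at 1447 to 1676 CPM in Normal 1 to 3 against 1303 to 1523 CPM in Control 1 to 3 (adjusted p = 0.528, edgeR). The other members Hspb2, Hspb3 and Hspb11 ranged from 6.25 to 72.6 CPM and did not pass. Hspb2 lies inside the span of Cryab on chromosome 9, and the strand counted is not given in the sources used here, so reads of the 2 cannot be fully separated.

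Of the HSP70 and HSP110 class, Hsph1 and Hspa4, HSP110-type exchange factors that reload HSP70 with ATP, and Hspa9 (mortalin), the mitochondrial HSP70, were lower in the Control-titled libraries. Hsph1 was at 67.8, 64.5 and 49.0 CPM in Normal 1 to 3, 30.9, 34.3 and 32.9 CPM in Control 1 to 3 and 45.3 and 57.0 CPM in RP 1 and 2. Its groups did not overlap, and the log2 change was -0.89 ± 0.160 (SE, adjusted p = 0.00276, edgeR), or 1.85-fold lower. Hspa4 was at 166, 134 and 130 CPM against 96.6, 106 and 105 CPM (log2 change -0.49 ± 0.142, SE, adjusted p = 0.0401, edgeR), and RP 1 and 2 were between, at 120 and 124 CPM.

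Hspa9, on chromosome 18, had the most even values of the called genes, 339, 355 and 367 CPM against 247, 269 and 273 CPM, with RP at 308 and 311 CPM. Its log2 change was -0.43 ± 0.129 (SE, adjusted p = 0.0477, edgeR), just inside the threshold, and it did not pass in 13 of 18 alternatives. Hspa4 did not pass in 11 of 18. Hspa8 did not pass (437, 474 and 300 CPM against 275, 311 and 300 CPM, adjusted p = 0.101, edgeR), except without Normal 3 (adjusted p = 0.00727, edgeR). Of the stretches of 50 bases in the last 500 bases of its transcripts, 68.6% are shared with another gene, mostly a processed copy, so its counts are uncertain. Hspa5 (BiP), the HSP70 of the ER, was at 330 to 383 CPM in Normal 1 to 3 against 294 to 329 CPM in Control 1 to 3 (adjusted p = 0.410, edgeR).

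In the HSP90 class, Hsp90ab1, the constitutive cytosolic form, was lower in the Control-titled libraries. It was at 1993, 2814 and 2437 CPM in Normal 1 to 3, 1303, 1768 and 1167 CPM in Control 1 to 3 and 1878 and 1834 CPM in RP 1 and 2. No Control-titled library reached the lowest Normal-titled library, and the log2 change was -0.77 ± 0.176 (SE, adjusted p = 0.0114, edgeR). Leaving out Normal 2, Control 1 or Control 3 ended the call (adjusted p from 0.0651 to 0.0830, edgeR). The call was also lost with Hba-a1 as a covariate (log2 change -0.556, adjusted p = 0.271, edgeR). Hsp90b1 (GRP94), the HSP90 of the ER, had overlapping groups, at 238, 208 and 145 CPM against 149, 184 and 122 CPM (adjusted p = 0.237, edgeR).

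Of the mitochondrial chaperonin, Hspe1, the lid, was at 191, 155 and 140 CPM in Normal 1 to 3, 119, 111 and 103 CPM in Control 1 to 3 and 131 and 181 CPM in RP 1 and 2 (log2 change of Control against Normal -0.54 ± 0.163, SE, adjusted p = 0.0471, edgeR). The groups did not overlap, but the call was lost in 10 of 18 alternatives. Hspd1, the barrel, was at 168, 118 and 106 CPM against 90.7, 110 and 99.9 CPM and did not pass (adjusted p = 0.175, edgeR). Copies elsewhere in the genome share 53.2% of the 50-base stretches of Hspe1 and 29.8% of those of Hspd1.

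Among the J proteins, which bring clients to HSP70, the A and B types held 1 called gene of 14 and the C types 3 of 24, near the 10.4% of all genes. Dnajb2, of which a form sits on the ER membrane, was at 50.03, 74.8 and 54.6 CPM in Normal 1 to 3, 33.9, 38.6 and 42.2 CPM in Control 1 to 3 and 54.1 and 57.8 CPM in RP 1 and 2 (log2 change of Control against Normal -0.64 ± 0.166, SE, adjusted p = 0.0230, edgeR). Dnajc2, a J protein of the ribosome, was at 54.6, 63.9 and 60.2 CPM against 36.3, 42.9 and 28.7 CPM (log2 change -0.73 ± 0.162, SE, adjusted p = 0.00990, edgeR), with RP at 43.1 and 49.9 CPM. Neither gene's Normal-titled and Control-titled libraries overlapped. Dnajb6, in which mutations cause a muscular dystrophy in people, missed the threshold (93.8, 170 and 154 CPM against 83.0, 97.5 and 86.8 CPM, adjusted p = 0.0520, edgeR), but passed with no filter, with DESeq2 and without Normal 1.

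The higher genes were of low level. Dnajc12, a co-chaperone of the aromatic amino acid hydroxylases, was at 9.81, 11.5 and 14.3 CPM in Normal 1 to 3, 20.2, 19.0 and 17.9 CPM in Control 1 to 3 and 19.1 and 17.99 CPM in RP 1 and 2 (log2 change of Control against Normal 0.68 ± 0.185, SE, adjusted p = 0.0289, edgeR). Dnajc4 was at 12.7, 14.7 and 16.5 CPM against 22.05, 24.6 and 24.0 CPM (log2 change 0.68 ± 0.177, SE, adjusted p = 0.0230, edgeR). Bag2, which holds back the ubiquitin ligase CHIP, was at 12.33, 13.0 and 13.7 CPM against 22.8, 17.1 and 26.6 CPM (log2 change 0.77 ± 0.213, SE, adjusted p = 0.0320, edgeR). In all 3 genes every Control-titled library lay above every Normal-titled library. The calls of Dnajc4 and Dnajc12 were also lost without Control 2 (adjusted p = 0.0803 for both, edgeR), and that of Dnajc12 without Normal 1 (adjusted p = 0.0520, edgeR). Of the called genes, Hspb8, Hspa9 and Dnajc4 overlap small predicted or noncoding genes in the annotation, and Hspe1 overlaps Hspd1, so some of their reads may belong to the neighbour.

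**Figure D4:**
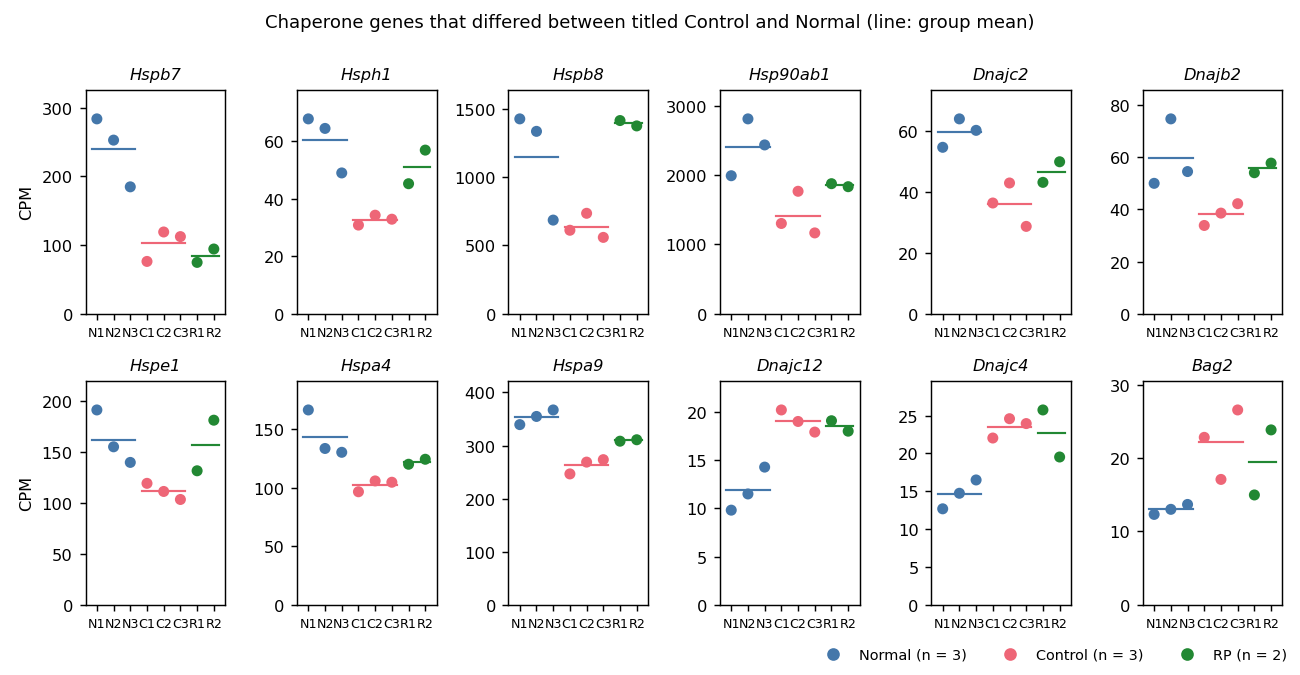
Level in CPM (axes start at 0) in each library of the 12 chaperone genes that passed in titled Control against Normal, ordered from the most negative to the most positive log2 change (lines are group means). The RP libraries lie above every Control-titled library for all the lower genes but Hspb7 (15.3% of all genes). They lie below every Normal-titled library for Hspb7, Hsp90ab1, Dnajc2, Hspa4 and Hspa9 (15.4% of all genes). For Bag2, Dnajc12 and Dnajc4 they lie above every Normal-titled library (15.4% of all genes). The genes were chosen by their difference between the same Normal-titled and Control-titled libraries, so these positions follow in part from that choice.

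None of the 7 TRiC subunits tested passed. All 7 had a negative log2 change, from -0.45 for Cct4 to -0.10 for Cct5, against 49.9% of all genes. Cct2 was at 103, 127 and 113 CPM in Normal 1 to 3 against 90.7, 86.7 and 87.2 CPM in Control 1 to 3 (adjusted p = 0.0926, edgeR). Cct4 was at 97.2, 134 and 125 CPM against 84.7, 83.2 and 92.6 CPM (adjusted p = 0.0660, edgeR). Without Normal 1, Cct2 (adjusted p = 0.0237, edgeR), Cct4 (adjusted p = 0.00518, edgeR), Cct7 and Cct8 passed, and Cct4 also with DESeq2 (adjusted p = 0.0452). Tcp1, the remaining subunit, which the symbol rule does not take, was at 103 to 141 CPM against 111 to 114 CPM (adjusted p = 0.446, edgeR).

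**Figure D5:**
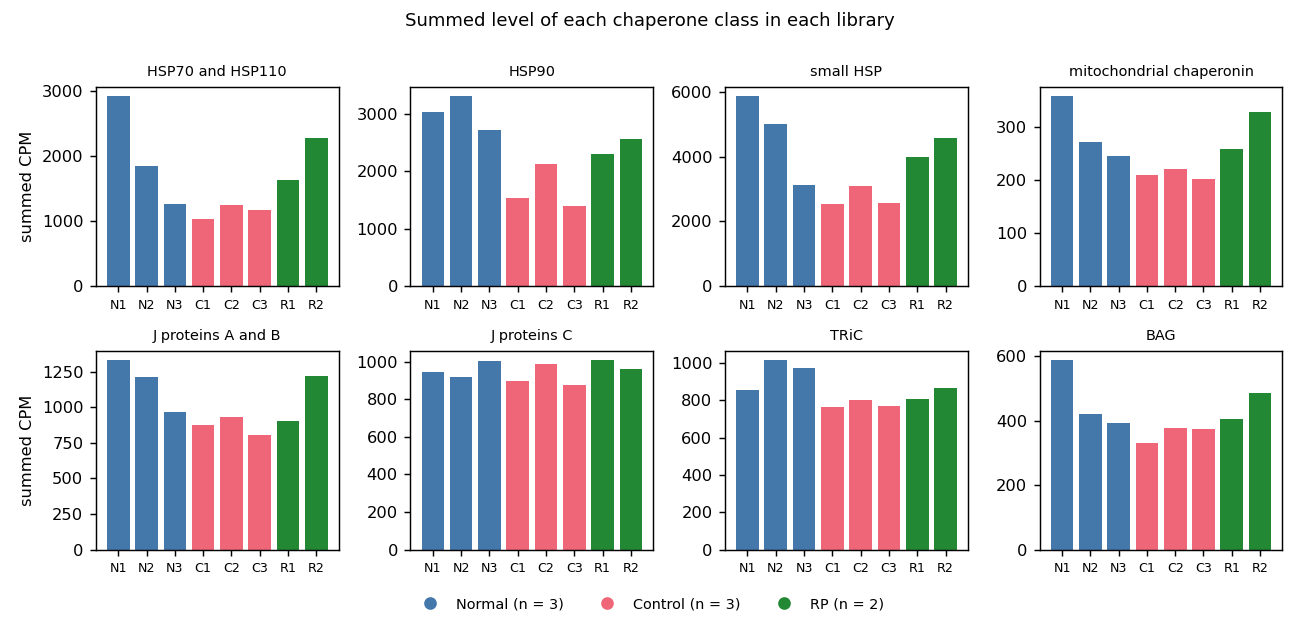
Summed CPM of the tested genes of each chaperone class in each library (bars start at 0; N Normal, C Control, R RP). The small heat-shock proteins hold the most reads in every library, and the HSP70 and HSP110 sum runs from 1268 to 2912 CPM within the Normal-titled group.

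Summed over all 77 genes, the level was 15889, 14016 and 10697 CPM in Normal 1, 2 and 3, 8164, 9773 and 8139 CPM in Control 1, 2 and 3, and 11308 and 13253 CPM in RP 1 and 2. The titled Normal and Control libraries did not overlap, and both RP libraries lay above all Control-titled ones. No test was made on these sums, which a few abundant genes set. The small heat-shock proteins alone went from 2528 CPM in Control 1 to 5868 CPM in Normal 1, while the C type J proteins were even, between 876 and 1009 CPM in all 8 libraries.

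The comparison of RP with the Control-titled libraries addressed the effect of the extract in tumour-bearing mice. No chaperone gene passed (0 of 77 in edgeR's quasi-likelihood test, against 0.228% of all genes, 0.182% higher and 0.0455% lower). DESeq2 called 1 (0.85% of all genes) and limma-voom 0 (0.0759%). At an unadjusted p under 0.05 there were 8 (10.4%, against 8.92% of all genes). The 8 were Hspb8, Hsph1, Dnajb2, Hspe1, Hspa8, Hspd1 and Hspa5, all with higher values in RP, and Dnajb5, with lower values. The RP and Control-titled libraries did not overlap for 28 of 77 genes (31.7% of all genes), with 22 higher in RP (15.3% of all genes) and 6 lower (16.4%). The median log2 change of the 77 was 0.14 against 0.00 for all genes, and 53 of 77 were positive. This comparison shares the Control-titled libraries with the one above, so their values are given side by side and not compared.

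Hspb8 had the largest change among those 8 genes. RP 1 and 2 held 1413 and 1374 CPM against 558 to 735 CPM in the Control-titled libraries, a 2.20-fold difference with a log2 change of 1.14 ± 0.252 (SE, adjusted p = 0.127, edgeR). It passed in 5 of 18 alternatives: with DESeq2 (adjusted p = 0.00173), with no filter (adjusted p = 0.0486), with the 2 groups alone (adjusted p = 0.000146), with Hba-a1 as a covariate (adjusted p = 0.0353) and without Normal 3 (adjusted p = 0.000669). Over the 18 the adjusted p reached 0.519. For Hsph1 the log2 change was 0.65 ± 0.176 (SE, adjusted p = 0.230, edgeR). With the 2 groups alone, Hspb8, Hsph1 and Hspa8 passed, in a fit that called 1.21% of all genes. Dnajb5 was at 160, 162 and 130 CPM in the Control-titled libraries against 64.2 and 120 CPM in RP (log2 change -0.71 ± 0.232, SE, adjusted p = 0.344, edgeR).

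Of the other wide-spread genes, the log2 change was 1.73 ± 0.851 (SE, adjusted p = 0.645, edgeR) for Hsp90aa1, 1.86 ± 0.753 (SE, adjusted p = 0.565, edgeR) for Dnajb1 and 1.33 ± 0.606 (SE, adjusted p = 0.601, edgeR) for Hspb1. Bag3, whose RP libraries also lay above all Control-titled ones, had a value of 0.63 ± 0.418 on this scale (SE, adjusted p = 0.732, edgeR). Cct2 (-0.07), Dnajc3 (-0.01) and Hspb6 (0.09) were near 0 on the log2 scale. The summed neutrophil markers also differed between these libraries (11.6 to 20.8 against 34.9 and 495 CPM), and their part in the chaperone levels was not tested.

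The comparison of RP with the Normal-titled libraries set treated tumour-bearing mice against mice without a tumour. Only Hspb7 passed among the 77 genes (1.30%, against 2.48% of all genes), lower in RP, as were 0.751% of all genes. Its log2 change was -1.51 ± 0.230 (SE, adjusted p = 0.00252, edgeR), or 2.85-fold lower. The call was lost without RP 1, when RP 2 alone stood for the group (adjusted p = 0.0832, edgeR), and held in the other 17 alternatives. Unadjusted, 6 of 77 genes had a p under 0.05 (17.0% of all genes), and 20 of 77 did not overlap between the groups, 8 higher and 12 lower (30.8% of all genes, 15.4% in each direction). Between RP and the Control-titled libraries the log2 change of Hspb7 was -0.28 ± 0.221 (SE, adjusted p = 0.772, edgeR). Hspa1a (-0.10 ± 1.62, SE) and Hspa1b (-0.07 ± 1.74, SE) were near 0 on the log2 scale between RP and the Normal-titled libraries, with errors too wide to show likeness.

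Of the other chaperone genes listed for the same pathways, 65 were tested; Hsf5 and Cryaa were not. In Control against Normal 5 were lower (5.43% of all genes) and 3 higher (4.95%), with a median log2 change of -0.09, and these 8 together were near the 10.4% of all genes called. In RP against Control none passed (0.228% of all genes), and in RP against Normal 1 was higher (1.73%). Cryab (alpha B-crystallin), the most abundant of them and a small heat-shock protein by structure, was at 3186, 2756 and 1443 CPM in Normal 1 to 3, 867, 1163 and 957 CPM in Control 1 to 3 and 1438 and 1978 CPM in RP 1 and 2. Its Normal-titled libraries lay above all Control-titled ones, with a log2 change of -1.31 ± 0.261 (SE, adjusted p = 0.00901, edgeR). The call was lost without Control 3 (adjusted p = 0.0506, edgeR) and with Hba-a1 as a covariate (adjusted p = 0.118, edgeR).

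Fkbp5, an HSP90 co-chaperone and a known glucocorticoid target, was at 171, 89.3 and 98.4 CPM in Normal 1 to 3, 33.8, 42.6 and 29.7 CPM in Control 1 to 3 and 69.3 and 70.5 CPM in RP 1 and 2. The groups formed 3 ranges without overlap, Normal above RP above Control. Its log2 change was -1.76 ± 0.231 (SE, adjusted p = 0.000519, edgeR) for Control against Normal, and it passed in all 18 alternatives. For RP against Control it was 0.98 ± 0.251 (SE, adjusted p = 0.213, edgeR), and this passed with DESeq2 (adjusted p = 0.0219), with the 2 groups alone (adjusted p = 0.00445) and without Normal 1 (adjusted p = 0.00787).

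The HSP90 and HSP70 co-chaperones Ptges3 (p23, log2 change -0.75) and St13 (Hip, -0.52) were lower in the Control-titled libraries, as was Uggt1 (-0.58), which checks the folding of glycoproteins in the ER. Higher there were Hspbp1 (0.63), an exchange factor of HSP70, Smyd1 (0.51), a muscle methyltransferase that works with HSP90 on myosin, and Txndc5 (0.88), a disulphide isomerase of the ER. Their adjusted p were between 0.00400 and 0.0362 (edgeR), and of these 6 calls that of Ptges3 held in all 18 alternatives. Smyd1 was also higher in RP than in the Normal-titled libraries (log2 change 0.66 ± 0.149, SE, adjusted p = 0.0277, edgeR), a call that was lost in 9 of 18 alternatives, among them without either RP library. Hyou1, the large HSP70 of the ER, was at 12.8 to 20.8 CPM in all libraries and passed in none of the comparisons.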

How the data were processed

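Sequencing of 3′ ends (QuantSeq) from 500 ng of RNA gave 8 libraries. The deposited tables hold whole-number read counts per gene symbol, without normalization. Per the submitters' processing notes, Bowtie2, edgeR and build mm10 were used, without versions; the counting tool, the strand and the annotation are not given in the sources used here. Groups follow the titles.

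Tests used edgeR 4.0.16 under R 4.3.3 (filterByExpr, TMM, robust quasi-likelihood, 2-sided, all 8 libraries in 1 fit), with Benjamini-Hochberg adjustment over 13174 genes and a threshold of 0.05; the SE is the log2 change divided by the root of F. The common biological coefficient of variation was 0.195. SDs used log2 CPM with a prior count of 2. The 35 symbols listed more than once were kept as separate rows, and 5430 rows had no count. No 2 libraries of a group agreed within sampling noise.

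The members and lists were chosen with earlier results of these data known. Named genes were 22 fixed members, each member past the threshold, the member of largest change per class with a mean CPM of at least 5, and 5 fixed or any called genes of the other chaperone list. Each count was recomputed with RLE or upper-quartile scaling in place of TMM, without the filter, with genes of mean CPM 5 or more, with DESeq2 1.42.0 and limma-voom (limma 3.58.1), on 2 groups alone, with a replicate block, with haemoglobin genes and Rn45s removed, with Hba-a1 as a covariate, and without each library (a lone RP library then takes its spread from the other groups). Those of the within-group SD were added after the data were seen. The pipeline was tested on simulated counts. Promoters came from RefSeq (GRCm38.p6) and transcript ends from GENCODE M21. Figures used matplotlib 3.10.9 and the alignment Biopython 1.88.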

Additional observations from a re-analysis of the deposited data

How the results depend on the processing

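For Control against Normal 12 chaperone genes were called, against 10.4% of all genes. With Hba-a1 as a covariate 4 were called (3.45% of all genes), 3 of them among the 12. Under the other settings of normalization, filter, tool and groups the count was 9 to 16 (8.84 to 12.8% of all genes). When 1 Normal or Control library was left out it was 2 to 18 (4.7 to 15%), not always of the same genes. For RP against Control the count was 0, against 0.228% of all genes. It became 1 with no filter (0.471% of all genes), 1 with DESeq2 (0.85%) and 1 with Hba-a1 as a covariate (0.417%). It was 3 with the 2 groups alone (1.21%). When 1 Normal or Control library was left out it was 0 to 1 (0.0533 to 0.541%). For RP against Normal the count of 1 (2.48% of all genes) became 1 to 3 when 1 Normal or Control library was left out (1.26 to 5.65%). Without RP 1 the call of Hspb7 was lost, with RP 2 alone for that group. The cause of these shifts was not tested. Same-numbered Normal and Control libraries did not deviate together (r of -0.067, -0.019 and -0.042 across genes). For this reason the numbers were not taken to pair them. With a replicate block the counts were 9, 0 and 1 (9.44, 0.106 and 1.93% of all genes). The share of promoters with a heat-shock element was 6.35% for 3 units and 30.2% for 2 units. No called change of a named gene turned its direction. Among named genes that had not passed, 56 of 1386 values over the 18 alternatives changed sign. These values cover only the named genes, some of them outside the symbol rule, and not all 77 chaperone genes. With 3, 3 and 2 libraries, changes of genes as uneven as Hspa1a could not be told from the spread. Dnajb3 (0 to 1.13 CPM) did not pass.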
